A study of Rattus norvegicus with 6 samples.

Results

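Genes of the glutathione and thioredoxin systems and of the enzymes that remove superoxide and peroxides were examined in brain tissue of rats after hypoxia-ischemia (HI). A list of 40 genes was matched by symbol to the deposited table of 19382 genes, and all 40 had a row. There were 6 RNA-seq libraries, 3 of a control group and 3 of an HI group, whose Sprague-Dawley (SD) rats underwent 2.5 h of ischemia and hypoxia when 7 days old, which models injury of the newborn brain. Sample labels call the controls only control treatment and give no sham operation, age, sex, brain region or time from injury to sampling. The echinatin of the study's title is given in no sample label. Whether each library represents its own animal is not stated, so p-values reflect only the variation among these libraries, some of which may be technical.

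Glutathione is made in a pair of ligase steps and is recycled by glutathione reductase. Glutathione peroxidases use it to reduce peroxides, and glutathione transferases join it to reactive lipids and other electrophiles. Thioredoxins and peroxiredoxins form a parallel route that is driven by thioredoxin reductase, while superoxide dismutases and catalase act directly on superoxide and hydrogen peroxide. Many of these genes are targets of the transcription factor NRF2 (gene Nfe2l2), which KEAP1 marks for degradation until oxidants modify KEAP1. In brain, astrocytes have the greater NRF2 activity and supply neurons with glutathione precursors.

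Libraries held 13922663 to 14927469 estimated reads, so that a count of 0 allows up to 3 reads, or 0.182 to 0.227 CPM (read counts scaled to library size). TMM factors, which correct for differences in library composition, entered this scaling. Summed astrocyte and neuron markers were abundant in all 6 libraries, as the brain label says. Single ones were scarce in some, such as Slc1a2 at 4.56 CPM in HI 2 and Slc17a7 at 2.54 CPM in HI 1. A list of 8 choroid plexus markers summed to 15.9, 2155 and 6.96 CPM in controls 1, 2 and 3, and in HI 1, 2 and 3 to 180.5, 8079 and 15170.0 CPM, so control 2, HI 2 and HI 3 stood apart from the rest. Reads of 4 Y-linked genes came to at least 1356 in control 3, HI 2 and HI 3 and to at most 3 in the others, so the sexes were unevenly spread over the groups. In bulk tissue fewer cells of a type and less RNA per cell cannot be told apart.

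NRF2 binds the antioxidant response element, whose core is written here as TGACNNNGC (N is any base). RefSeq sequence of assembly GRCr8 was available for 33 of the 40 genes, and the core was searched on both strands of the 250 bases before the start site. It was present upstream of 7 of the 33 genes (21.2%) and, counted per gene in the same way, of 11.02% of all 27457 genes in the sequence table. Counted per promoter, 10.1% of 33469 sequences of the same length held it. These 7 were Gclm, Gstm5, Gstm7, Gstp1, Prdx1, Sod2 and Txnrd1. The stretches below are shown because they hold the core in genes of different arms of the system that are described next. Capitals mark the core, and each is written 5′ to 3′ on the strand of its gene.
Prdx1: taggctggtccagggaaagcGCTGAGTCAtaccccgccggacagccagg
Gstp1: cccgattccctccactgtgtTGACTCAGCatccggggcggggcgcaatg
Gclm: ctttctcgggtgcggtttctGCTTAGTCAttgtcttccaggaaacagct
Txnrd1: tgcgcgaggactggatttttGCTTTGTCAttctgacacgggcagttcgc
The Prdx1 stretch lies at chr5:135383751-135383799 on the plus strand, that of Gstp1 at chr1:210769738-210769786 on the minus strand, that of Gclm at chr2:213031943-213031991 on the plus strand and that of Txnrd1 at chr7:22755954-22756002 on the minus strand. In Prdx1, Gclm and Txnrd1 the core reads on the opposite strand. Prdx1 and Gstp1 hold the same 9 bases, TGACTCAGC when read on the core's own strand. Of the genes that passed the expression test below, 6 had a sequence, and only Prdx1 among them had a match, while Nfe2l2, Nqo1, Mgst1, Mgst3 and Gsto1 had none in this window. A match describes letters only, and elements that lie farther away were not searched.

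The comparison of HI with control asks which of these genes differ in brain after the injury. Among the 38 that could be tested, 6 rose in HI, namely Mgst1, Nfe2l2, Txnip, Nqo1, Prdx6 and Prdx1, by 9.24-fold down to 1.704-fold. Only Mgst3 and Gsto1 fell, to 0.393 and 0.707 of the control level. The test was the quasi-likelihood F test of edgeR with Benjamini-Hochberg adjustment over all 14959 genes tested and a threshold of 0.05. That is 15.8% of the tested members higher and 5.26% lower, where 6.83% of all tested genes were higher and 7.04% lower. The median log2 fold change of the 38 was 0.54 and that of all tested genes 0.04. In 20 members all 3 HI libraries lay above all 3 controls (52.6%, against 21.5% of all tested genes), and in 2 all 3 lay below (against 20.8%). Mgst1 and Gstm2 passed the filter on low counts through their HI reads, so Gstm2 was bound to look higher and Mgst1 was favoured to do so. Without them 5 of 36 rose, 2 fell and 18 had all HI libraries above, and the share of all genes under the same restriction is not given. Members were chosen with earlier results of these data known, so these shares only describe the list. Gstm5, a glutathione transferase, had no read in any library. Osgin1, an oxidative stress-induced growth inhibitor, had too few reads to test, having 1, 3 and 1 in controls 1 to 3 against 6, 8 and 24 in HI 1 to 3.

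**Figure D1:**
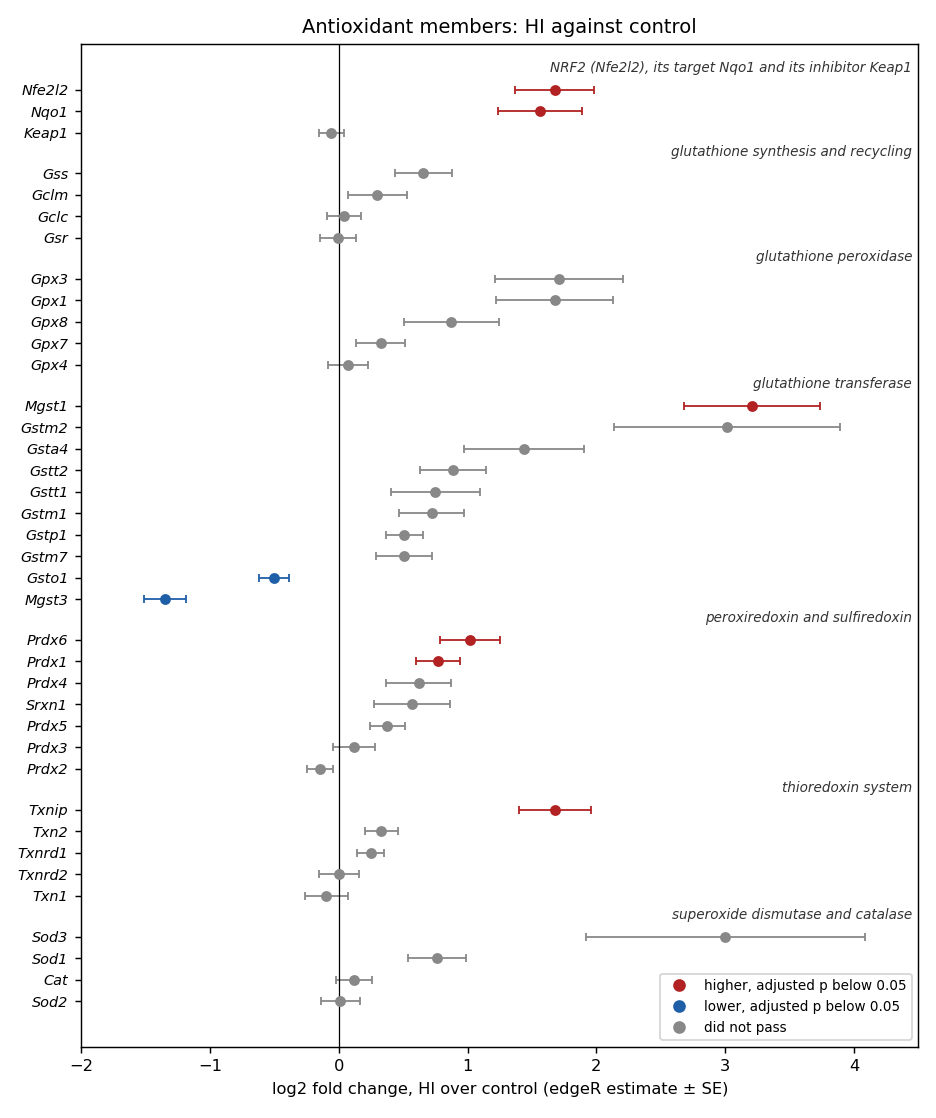
Log2 fold change of HI over control with its SE for the 38 tested members, grouped by role (horizontal axis in log2 units). Red points passed the test as higher (6 genes), blue as lower (2 genes), and grey points did not pass (30 genes). Mgst1 at 3.21 and Mgst3 at -1.35 are the ends of the range.

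Nfe2l2 itself stood at 11.7, 12.8 and 15.7 CPM in controls 1, 2 and 3 and at 27.3, 39.6 and 61.7 CPM in HI 1, 2 and 3. Every HI library thus lay above every control, and the lowest HI library was HI 1. Nfe2l2 rose from 13.4 ± 2.06 to 42.9 ± 17.4 CPM (SD, n = 3 in each group), and its log2 fold change was 1.68 ± 0.31 (SE, edgeR adjusted p = 0.0270). Keap1, its inhibitor, had 62.8, 56.99 and 61.8 CPM in the controls and 62.7, 57.3 and 54.7 CPM in HI, with overlapping groups. Its log2 fold change was -0.057 ± 0.10, which missed the threshold and changed sign with the scaling (edgeR adjusted p = 0.706). Nqo1, a quinone reductase and a standard NRF2 target, had 9.62, 7.36 and 8.01 CPM in the controls. In HI it had 17.3, 19.4 and 37.1 CPM, with a log2 fold change of 1.56 ± 0.32 (edgeR adjusted p = 0.0327). As for Nfe2l2, the groups did not overlap, and HI 3 was highest.

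**Figure D2:**
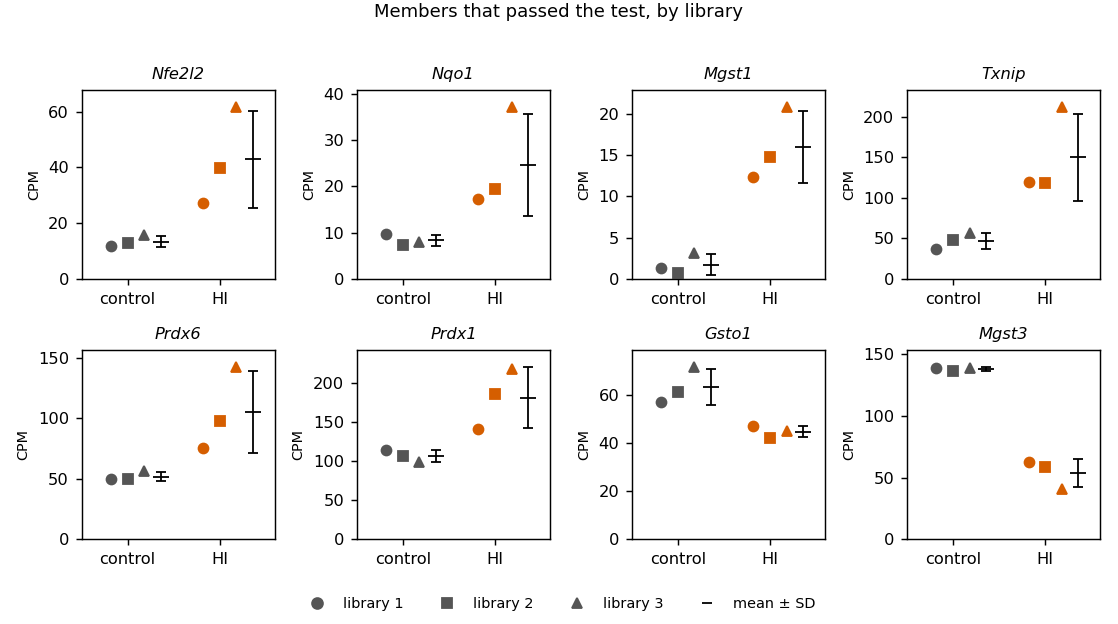
CPM of the 8 members that passed the test, with 1 point per library and the mean ± SD of 3 libraries beside each group. Axes start at 0. The 6 genes that rose have all HI points above all control points, with HI 3 highest, and Gsto1 and Mgst3 have all HI points below.

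None of the 4 genes that make and recycle glutathione passed edgeR, with 1 at an unadjusted p below 0.05 against 36.5% of all tested genes. This 1 was Gss, which DESeq2 called higher, as it did 13.9% of all tested genes. Gclc, the catalytic subunit of the rate-limiting ligase, had 51.8, 46.02 and 42.9 CPM in the controls and 42.7, 47.4 and 54.3 CPM in HI. Its log2 fold change was 0.038 ± 0.13, the HI values spanned the control values, and its sign changed with the setting. Gclm, the modifier subunit of the same ligase, had 10.2, 13.3 and 13.03 CPM in the controls and 11.2, 15.4 and 18.4 CPM in HI (log2 fold change 0.30 ± 0.23). Gss, which adds glycine in the final step, differed more, with 11.5, 10.7 and 11.5 CPM in the controls and 13.3, 16.8 and 22.9 CPM in HI. Here all HI libraries were above the controls, yet the log2 fold change of 0.66 ± 0.22 did not pass (edgeR adjusted p = 0.0858). Gsr, the reductase that regenerates glutathione, had 35.1, 32.03 and 27.9 CPM in the controls and 32.3, 34.6 and 27.7 CPM in HI, and its estimate of -0.006 ± 0.14 also had no stable sign.

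Of 5 glutathione peroxidases 0 passed edgeR, with 2 at an unadjusted p below 0.05 against 36.5% of all tested genes. These were Gpx1 and Gpx3, both called higher by DESeq2, as were 13.9% of all tested genes. In 3 of the 5 all HI libraries lay above the controls, against 21.5% of all tested genes. Gpx1, the cytosolic selenoenzyme that reduces hydrogen peroxide, had 29.2, 39.6 and 33.4 CPM in the controls and 46.9, 101 and 179 CPM in HI. HI 1 was close to control 2 and HI 3 far above, and the log2 fold change of 1.68 ± 0.45 missed the threshold (edgeR adjusted p = 0.0548). Gpx3, the secreted enzyme, had 31.1, 13.5 and 21.9 CPM in the controls and 125, 43.6 and 48.95 CPM in HI. It differed from most members in being highest in HI 1 (log2 fold change 1.71 ± 0.49, edgeR adjusted p = 0.0621). Gpx4, which reduces lipid hydroperoxides in membranes and restrains ferroptosis, had 141, 145 and 142 CPM in the controls and 124, 141 and 185 CPM in HI. HI 1 and HI 2 were below the controls and HI 3 above, and its estimate of 0.069 ± 0.16 changed sign with the setting. Gpx7, an enzyme of the endoplasmic reticulum, had 10.8, 9.35 and 8.98 CPM in the controls and 10.9, 10.99 and 14.6 CPM in HI, a narrow separation that did not pass (log2 fold change 0.33 ± 0.19). Gpx8, of the same compartment, had groups that overlapped through HI 1 (log2 fold change 0.88 ± 0.37), and its counts are uncertain because some of its reads were divided with other genes.

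The microsomal glutathione transferases moved in opposite directions. Mgst1, a membrane transferase and peroxidase, had 1.29, 0.736 and 3.14 CPM in the controls, which are 17, 10 and 42 reads, and 12.3, 14.8 and 20.8 CPM in HI. It rose from 1.72 ± 1.26 to 15.98 ± 4.39 CPM, a log2 fold change of 3.21 ± 0.53 (edgeR adjusted p = 0.0238). Mgst3, a membrane enzyme related to leukotriene synthases, had 138, 136 and 139 CPM in the controls and 62.4, 58.8 and 41.2 CPM in HI. It fell from 138 ± 1.53 to 54.1 ± 11.3 CPM, a log2 fold change of -1.35 ± 0.16 (edgeR adjusted p = 0.0207), the smallest adjusted p of the 38. Among the controls it varied by no more than 3 CPM, and HI 3 was the lowest library.

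Among the soluble transferases Gsto1 passed, and it was lower, a call kept in 5 of 16 alternative fits. This omega-class enzyme, which reduces dehydroascorbate, had 57.3, 61.6 and 71.7 CPM in the controls and 47.3, 42.4 and 45.01 CPM in HI (log2 fold change -0.50 ± 0.12, edgeR adjusted p = 0.0410). The largest estimate that missed the threshold was that of the mu-class Gstm2, with 5, 27 and 7 reads in controls 1 to 3 against 32, 114 and 233 in HI 1 to 3 (log2 fold change 3.01 ± 0.88, edgeR adjusted p = 0.0627). Control 2 and HI 1 nearly met at 1.99 and 2.14 CPM. Gsta4, an alpha-class enzyme specialised for the lipid aldehyde hydroxynonenal, had 6.29, 10.01 and 13.9 CPM in the controls and 16.4, 19.9 and 45.4 CPM in HI (log2 fold change 1.44 ± 0.47, edgeR adjusted p = 0.0794). Gstp1, the pi-class enzyme, had 56.4, 54.7 and 56.6 CPM in the controls and 65.9, 78.4 and 94.3 CPM in HI. Its control libraries lay close together, the HI libraries were all above them, and the log2 fold change of 0.51 ± 0.14 came near the threshold (edgeR adjusted p = 0.0589). Gstm1 had 108, 79.96 and 109 CPM in the controls and 153, 116 and 221 CPM in HI (log2 fold change 0.72 ± 0.25), separated groups with HI 2 close to control 3. Gstm7 overlapped through HI 2 (log2 fold change 0.51 ± 0.22). The theta-class genes had separated groups at low levels. Gstt1 had 1.89, 2.21 and 2.47 CPM in the controls and 3.34, 2.51 and 5.21 CPM in HI. Gstt2, some of whose reads were divided with other genes, had 3.71, 2.28 and 3.22 CPM in the controls and 5.88, 5.33 and 5.82 CPM in HI. Neither passed edgeR, with log2 fold changes of 0.75 ± 0.35 and 0.89 ± 0.26. DESeq2, which called 13.9% of all tested genes higher, did so for Gstm1, Gstm2, Gsta4, Gstp1 and Gstt2. Their DESeq2 adjusted p ran from 0.0034 (Gstm2) to 0.0369 (Gstm1). Total-count scaling, which called 14.4% of all tested genes higher, did so for Gstm2, Gstp1 and Gstt2. Gstm2 passed the filter through its HI reads and was bound to look higher. Mu-class genes are related neighbours, and their counts were whole, unlike those of Gstt2. How the authors' counting treated reads that match several of them is not given in the sources used here, so their single values are uncertain.

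Peroxiredoxins reduce peroxides through a reactive cysteine. Of the 7 genes of this group, which includes sulfiredoxin, 2 rose, where 6.83% of all tested genes were higher. Prdx1, a cytosolic member, had 114, 106 and 98.98 CPM in the controls and 141, 185 and 218 CPM in HI (log2 fold change 0.77 ± 0.17, edgeR adjusted p = 0.0367). Prdx6, a member with a single reactive cysteine that uses glutathione and also acts as a phospholipase, had 49.5, 49.6 and 56.4 CPM in the controls and 75.2, 97.7 and 142 CPM in HI (log2 fold change 1.02 ± 0.23, edgeR adjusted p = 0.0384). In both the groups were apart, HI 1 was the lowest HI library and HI 3 the highest. Prdx2, the member abundant in neurons and red blood cells, had 267, 269 and 298 CPM in the controls and 269.5, 241 and 245 CPM in HI, overlapping groups with a log2 fold change of -0.14 ± 0.10. Prdx3, of mitochondria, also overlapped (0.12 ± 0.16). Prdx5, found in several compartments, had 67.6, 61.3 and 64.2 CPM in the controls and 71.4, 81.6 and 97.8 CPM in HI, separated but short of the threshold (log2 fold change 0.38 ± 0.13, edgeR adjusted p = 0.0966). Prdx4, of the endoplasmic reticulum, and Srxn1, the sulfiredoxin that repairs overoxidised peroxiredoxins and a standard NRF2 target, had log2 fold changes of 0.62 ± 0.25 and 0.57 ± 0.30, and for both the groups overlapped.

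Within the thioredoxin system the gene that rose was Txnip, an arrestin-like protein that binds and inhibits thioredoxin. It had 36.7, 47.6 and 56.3 CPM in the controls and 119.7, 118 and 212 CPM in HI (log2 fold change 1.68 ± 0.28, edgeR adjusted p = 0.0238). HI 1 and HI 2 were nearly equal and HI 3 was higher. Txn1, the cytosolic thioredoxin that Txnip binds, had overlapping groups and a log2 fold change of -0.10 ± 0.16. Its reductase Txnrd1 had 127, 118 and 112 CPM in the controls and 129, 151 and 143 CPM in HI, a narrow separation of HI 1 from control 1 that did not pass (0.25 ± 0.10, edgeR adjusted p = 0.137). Txn2, the mitochondrial thioredoxin, had 40.8, 45.6 and 49.2 CPM in the controls and 51.3, 55.2 and 64.1 CPM in HI (log2 fold change 0.33 ± 0.13, edgeR adjusted p = 0.117). The groups of the mitochondrial reductase Txnrd2 overlapped, and its log2 fold change was 0.003 ± 0.16.

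None of the superoxide dismutases and catalase passed edgeR, with 2 of the 4 at an unadjusted p below 0.05 against 36.5% of all tested genes. These were Sod1 and Sod3, both called higher by DESeq2, as were 13.9% of all tested genes. Sod1, the cytosolic copper and zinc enzyme, had 59.3, 72.2 and 93.96 CPM in the controls and 115, 107 and 161 CPM in HI, with separated groups (log2 fold change 0.76 ± 0.22, edgeR adjusted p = 0.0635). Sod2, the mitochondrial manganese enzyme and a known target of NF-kB, had 75.1, 65.01 and 92.3 CPM in the controls and 74.7, 86.1 and 73.7 CPM in HI. The groups overlapped fully, and the estimate of 0.013 ± 0.15 had no stable sign. Sod3, the extracellular enzyme, had 1.67, 9.72 and 3.14 CPM in the controls and 4.01, 36.7 and 75.97 CPM in HI. Control 2 was above HI 1, and despite a log2 fold change of 3.002 ± 1.08 it did not pass (edgeR adjusted p = 0.101). Cat, the peroxisomal catalase, had 92.01, 99.2 and 74.6 CPM in the controls and 93.2, 88.8 and 107 CPM in HI, again overlapping (0.12 ± 0.14).

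**Figure D3:**
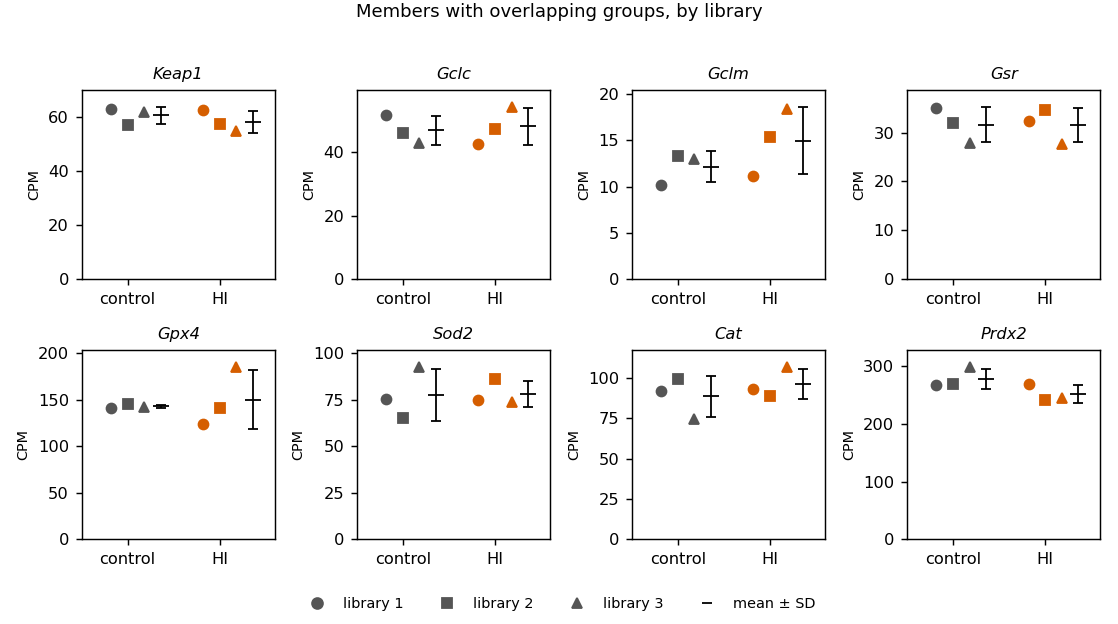
CPM of 8 of the 16 tested members with overlapping groups, with 1 point per library and the mean ± SD of 3 libraries beside each group. Axes start at 0. Log2 fold changes of those shown run from -0.14 for Prdx2 to 0.30 for Gclm, and none passed the test. Members with overlapping groups that are not shown run from -0.10 for Txn1 to 3.002 for Sod3.

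The HI libraries differed among themselves. Relative to the control mean of log2(CPM + 0.5), the 38 members had medians of 0.19, 0.34 and 0.67 in HI 1, 2 and 3, while in the controls the median lay between -0.03 and 0.03. Over all tested genes the corresponding HI medians were 0.02, 0.03 and 0.05. HI 3 was the highest HI library for 25 of the 38 members and HI 1 the lowest for 21. HI 1 was highest for 8, Gpx3 among them. All 6 members that rose were highest in HI 3, and 5 of them were lowest in HI 1.

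**Figure D4:**
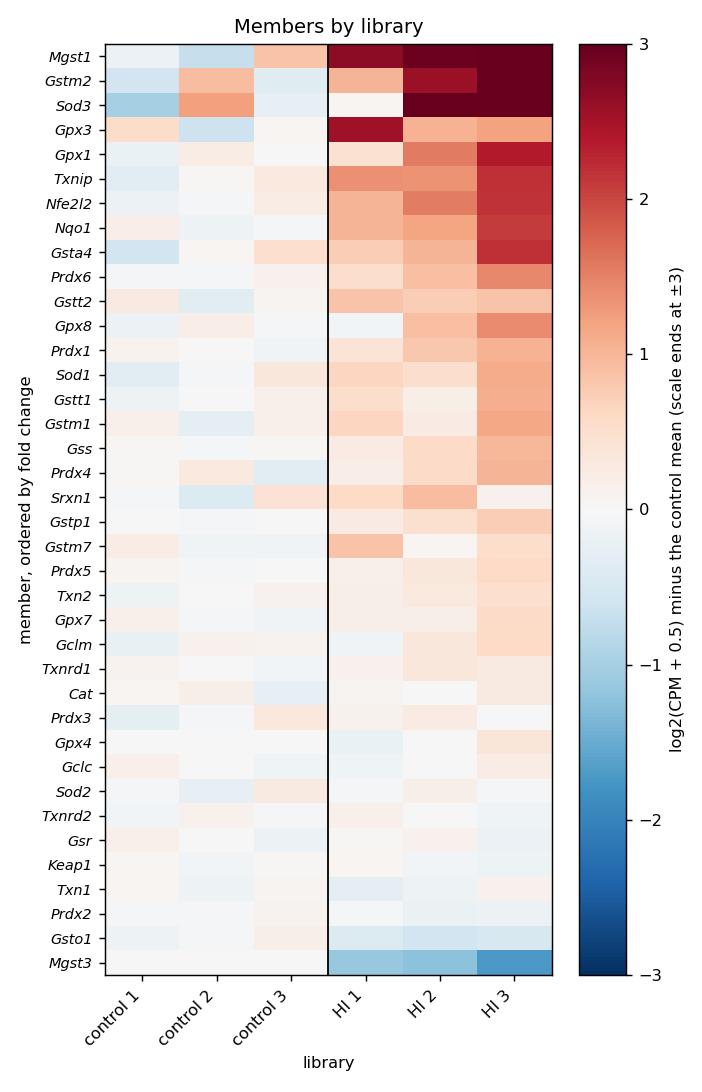
Log2(CPM + 0.5) minus the control mean for the 38 tested members (rows, ordered by fold change) in the 6 libraries (columns). Red is above and blue below the control mean, and colours end at ±3. HI 3 is the deepest red column, with a median of 0.67 against 0.19 in HI 1.

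Several lists of cell type markers moved with the groups, and their part in the results was not tested. For the counts below, 6.83% of all tested genes were higher and 7.04% lower. Microglia markers summed to 133 to 194 CPM across the controls, against 330.1 to 552 CPM across HI, and 7 of 9 rose. P2ry12 and Tmem119 did not pass, with overlapping groups and log2 fold changes of -0.13 and 0.47. Phagocyte markers summed to 11.7 to 16.3 CPM (controls) against 123 to 360.2 CPM (HI), and 4 of 5 tested rose. Of these, Lgals3, Itgax and Clec7a passed the filter on low counts through their HI reads and were bound to look higher. In controls 1 to 3 Lgals3 had 28, 10 and 9 reads, Itgax 0, 1 and 1, and Clec7a 1, 1 and 1. Astrocyte markers summed to 1300.3 to 2067 CPM (controls) against 3191 to 4704 CPM (HI) with 2 of 8 higher, which were Gfap and Aqp4. The other 7 astrocyte markers summed to 1448, 1157 and 1931 CPM in controls 1 to 3 against 2255, 1822 and 2398 CPM in HI 1 to 3, so without Gfap the groups overlapped. Slc1a2, Aldoc and Aldh1l1 did not pass, their log2 fold changes being -1.45, -0.12 and -0.11. Neuron markers summed to 4377 to 4923 CPM (controls) against 1824 to 3146 CPM (HI) with 5 of 10 lower. Gad1 and Gad2 went the other way with overlapping groups and did not pass, their log2 fold changes being 0.39 and 0.35. Both were highest in HI 1, where Slc17a7 had 2.54 CPM, against 63.3 and 51.1 CPM in HI 2 and HI 3 and 426 to 511 CPM in the controls. Oligodendrocyte markers summed to 776 to 1168 CPM (controls) against 568 to 603 CPM (HI) with 2 of 9 lower. Markers of meningeal fibroblasts and mural cells summed to 72.4 to 211 CPM (controls) against 238 to 784 CPM (HI) with 2 of 8 higher. These were Acta2 and Tagln, and without Tagln, at 52.4 to 257 CPM across HI, the summed groups overlapped. Pdgfrb was separated but did not pass, while Col1a1, Col1a2, Dcn, Lum and Rgs5 each overlapped. Ependyma markers summed to 19.4 to 44.5 CPM (controls) against 79.6 to 195 CPM (HI) with 2 of 5 higher, which were Foxj1 and Dynlrb2. Without Foxj1 the ependyma sums overlapped too. Rsph1 was separated but did not pass, while Ccdc153 and Tmem212 overlapped. Endothelium markers summed to 107 to 152 CPM (controls) against 126 to 234 CPM (HI) with 1 of 6 higher. Erythroid markers, of cells known to hold much Prdx2, Cat and Gpx1, overlapped at 16.7 to 292 CPM across the controls, against 89.97 to 599 CPM across HI, with 0 of 5 called by edgeR and 0 at an unadjusted p below 0.05. Of 8 neutrophil and lymphocyte markers 7 had fewer than 10 reads in every library.

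Choroid plexus markers varied between libraries of both groups, and 0 of 8 passed edgeR, with 1 at an unadjusted p below 0.05. Their sum ranked the 6 libraries HI 3, HI 2, control 2, HI 1, control 1 and control 3. The values of Sod3 put HI 3, HI 2 and control 2 first as well, and within each group Gstm2 and Gpx1 were ordered as the marker sum was, apart from the lowest controls. Gpx3 went the other way, highest in HI 1 and lowest in control 2. With the median of these markers as a term in the fit, the log2 fold change of Gpx3 was 2.50 (edgeR adjusted p = 0.0447). That of Gstm2 was 1.35, that of Gpx1 0.73 and that of Sod3 0.41. The median of the 38 members was 0.30 in that fit, against 0.54 without the term. These genes were named for their order along the marker sum. The markers partly follow the group, and their part in these values was not tested. In that fit 75 of all tested genes passed, against 2074 without the term, and none of the 8 calls was among them, with adjusted p between 0.0605 and 0.200. All 8 had their sign, with log2 fold changes of 3.43 for Mgst1, 1.44 for Txnip, 1.27 for Nfe2l2, 1.25 for Nqo1, 0.73 for Prdx6, 0.52 for Prdx1, -0.43 for Gsto1 and -1.20 for Mgst3.

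**Figure D5:**
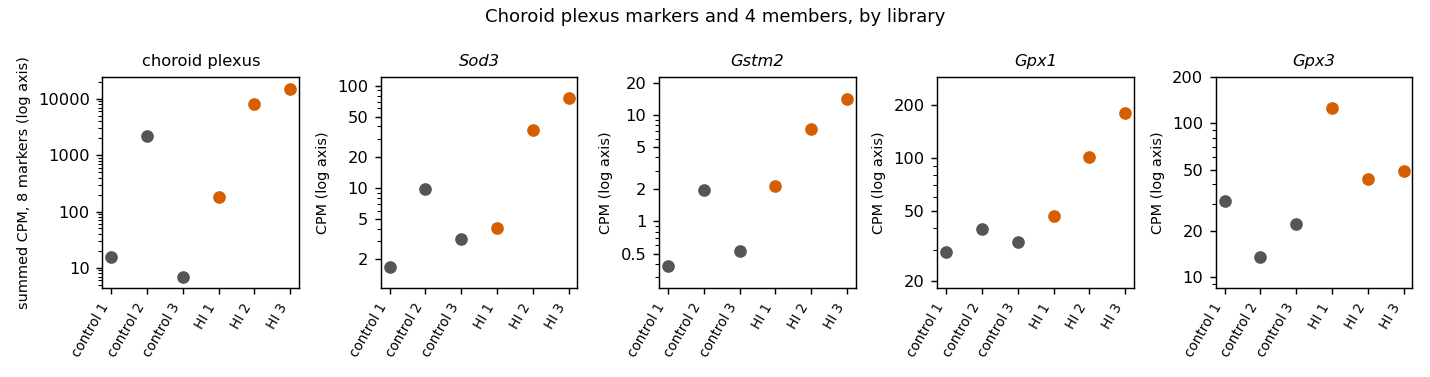
Summed CPM of 8 choroid plexus markers (left) and CPM of Sod3, Gstm2, Gpx1 and Gpx3 in each library, on log axes, with controls in grey and HI in orange. Sod3 is high in control 2, HI 2 and HI 3, where the marker sum is high, and Gpx3 is highest in HI 1, where the sum is 180.5 CPM.

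Further genes of the same pathways were taken from a list of 75, of which 73 had a row and 69 could be tested. There 11 rose and 1 fell (15.9% and 1.45%, against 6.83% and 7.04% of all tested genes), and the median log2 fold change was 0.25. That list too was chosen with earlier results of these data known. In glutathione turnover Chac1, which degrades glutathione, rose 3.13-fold, with 13.2, 13.3 and 13.03 CPM in the controls and 22.3, 58.5 and 42.96 CPM in HI. Oplah, which opens the 5-oxoproline ring so that glutamate can be reused, rose 2.56-fold, whereas Slc7a11, the cystine importer, had 24.8, 26.5 and 19.2 CPM in the controls and 44.7, 23.1 and 55.1 CPM in HI and did not pass (log2 fold change 0.80 ± 0.32, edgeR adjusted p = 0.124). Among 8 genes of NADPH supply the mitochondrial enzymes Idh2 and Nnt rose, 2.296-fold and 2.34-fold. Hmox1, the heme oxygenase that NRF2 induces, had 5.68, 3.83 and 5.32 CPM in the controls against 15.05, 28.98 and 33.9 CPM in HI, so that its log2 fold change was 2.39 ± 0.34 (edgeR adjusted p = 0.0215). Ephx1, an epoxide hydrolase, rose 3.200-fold, and both were 2 of the 14 NRF2 targets and partners in the list. Sesn2, a sestrin of the stress response, rose 3.26-fold and Aifm2, a ubiquinone reductase that restrains ferroptosis, 1.51-fold. The thioredoxin-like genes Nxn and Txndc12 rose 2.35-fold and 1.39-fold, and the mu-class transferase Gstm6 2.98-fold. The gene that fell was Sepw1, which encodes a small selenoprotein, with 431, 456 and 392 CPM in the controls against 259, 232 and 219 CPM in HI, 0.556 of the control level (edgeR adjusted p = 0.0215).

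With 1 library left out, the number of calls moved for the members and for all genes alike. Without control 1, control 2 or HI 2 edgeR called 0, 1 and 0 of all genes tested and none of the 8. There 15, 16 and 19 of the 38 members had an unadjusted p below 0.05, against 25.9%, 26.2% and 27.6% of all genes tested. The 8 had the same sign in all 6 such fits, which was bound to be so because their groups did not overlap. In the same order of fits the log2 fold change of Mgst1 was 3.01, 2.81 and 3.26, that of Nfe2l2 1.55, 1.61 and 1.73, and that of Mgst3 -1.37, -1.39 and -1.41. Of the 8, 4 passed without control 3 and 4 without HI 3, where 1694 and 644 of all genes passed, and 16 members passed without HI 1, where 3689 of all genes did. The DESeq2 Wald test called 16 members higher and 2 lower, against 13.9% and 14.2% of all tested genes. Total-count scaling, which moved the median of all genes by 0.19 on the log2 scale, gave 14 higher and 1 lower, against 14.4% and 4.88%. The libraries without Y-linked reads were controls 1 and 2 and HI 1, and those with them were control 3, HI 2 and HI 3. The groups of the 8 did not overlap, so their direction had to be the same in either set. With these reads as a term 3 were called higher and 1 lower, where 774 of all genes passed.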

How the data were processed

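RNA-seq of 6 rat brain libraries was used. Extraction used TRIzol and library preparation a SMARTER mRNA-Seq kit, per the labels' protocols. The submitters' processing notes name assembly Rnor 6.0, StringTie 2.2.1, SAMtools 1.10 and HISAT2 2.1.0. How reads were counted, and with what use of strand, is not given in the sources used here. Deposited values of the authors are estimated counts without scaling, not whole (to within 1e-09) in 2410 genes, Gpx8 and Gstt2 among them. They were rounded, filtered with filterByExpr of edgeR (minimum count 10), scaled by TMM and tested two-sided with edgeR 4.0.16 (R 4.3.3), group being the only term, with Benjamini-Hochberg adjustment over 14959 genes. SE came from the F statistic. DESeq2 1.42.0, limma-voom (limma 3.58.1), other scalings and filters, added terms and left-out libraries were alternatives. Libraries held 13922663 to 14927469 reads, and limits that a count of 0 allows cover counting error only. No libraries were duplicates (chi-square per degree of freedom at least 13.4). Procedures were tested on simulated data. List genes not found by symbol were matched by gene number to a RefSeq table (2 of the related genes). Members and lists were chosen with earlier results of these data known. Described in full were members that passed, those with separated groups and 11 fixed ones. From the related list up to 3 called genes per role, Slc7a11 and Hmox1 are named.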

Additional observations from a re-analysis of the deposited data

How the results depend on the processing

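Over 16 alternatives for each of 38 members, 486 of 608 values kept their direction and side of the threshold. In the rest 52 calls were lost, 32 were gained and 38 values changed sign, none of them of a called gene. The called genes had groups that did not overlap, so leaving out 1 library was bound to keep their sign. Members called higher, 6 in all, numbered 14 with total counts and 16 with DESeq2. They numbered 3 with Y-linked reads as a term and 1 with the choroid plexus term. Nqo1 and Prdx6 were lost with limma-voom. Those called lower, 2 in all, numbered 1 with upper-quartile factors, total counts, limma-voom, the replicate block or the Y-linked term, where Gsto1 was lost. They numbered 0 with the choroid plexus term. In that last fit the called members had edgeR adjusted p from 0.0605 to 0.200, and 12 of 38 members (31.6%) had an unadjusted p below 0.05, against 23.7% of all tested genes. Related genes called, 12 in all, numbered 21 with total counts, 21 with DESeq2, 6 with limma-voom, 4 with the Y-linked term and 0 with the choroid plexus term. All genes called, 2074, numbered 4200 with DESeq2, 1371 with limma-voom, 774 with the Y-linked term and 75 with the choroid plexus term, and 49.2% of them were higher, against 64.3% by upper quartiles and 74.7% by total counts. Without 1 library, members called higher ranged from 0 to 14, those called lower from 0 to 2, related genes called from 0 to 21 and all genes called from 0 (without control 1 or HI 2) to 3689 (without HI 1), with 644 without HI 3. The cause was not tested.

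Libraries with the same replicate number showed no steady likeness, though 3 libraries per group are too few to exclude a pairing. Correlations of same-numbered deviations from the group means were 0.23, 0.08 and -0.16, and not every library correlated best with its own number. With the replicate block 7 members were called higher and 1 lower, and 5 of the 8 calls were kept.

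Sign changes were seen in members with log2 fold changes near 0, and the largest size among changed values was 0.19. Keap1 stood at 0.040 by upper quartiles, 0.13 by total counts and 0.054 in the choroid plexus fit. Gclc stood at -0.0083 unfiltered, -0.070 in the choroid plexus fit, -0.0073 without control 2, -0.058 without control 3 and -0.057 without HI 3. Gclm stood at -0.025 in the choroid plexus fit. Gsr stood at 0.088 by upper quartiles, 0.19 by total counts, 0.052 in the Y-linked fit, 0.0079 in the choroid plexus fit, 0.044 without control 1 and 0.080 without HI 3. Gpx4 stood at -0.0068 in the Y-linked fit, -0.13 in the choroid plexus fit and -0.11 without HI 3. Prdx2 stood at 0.048 by total counts. Prdx3 stood at -0.037 without control 1. Txn1 stood at 0.0034 by upper quartiles and 0.10 by total counts. Txnrd2 stood at -0.020 by DESeq2 size factors, -0.021 in the DESeq2 test, -0.0039 in limma-voom, -0.040 unfiltered, -0.068 without control 1, -0.061 without control 3 and -0.088 without HI 1. Sod2 stood at -0.0092 by DESeq2 size factors, -0.0093 in the DESeq2 test, -0.031 unfiltered, -0.058 in the Y-linked fit, -0.039 without control 1, -0.13 without control 2 and -0.064 without HI 2. Cat stood at -0.012 in the choroid plexus fit and -0.027 without control 3.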
